A study of Mus musculus with 4 samples.

Results

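The adhesion genes described here are the cadherin superfamily, the integrins and the receptor-type protein tyrosine phosphatases. They were chosen by gene name alone: every listed site whose gene name began with Pcdh, Cdh, Celsr, Dchs, Itga, Itgb or Ptpr followed by a lower-case letter, or was Fat1 to Fat4. The rule found 59 genes of the 5526 named genes in the tables, with 187 listed entries of 11986, at 180 distinct positions of 10598. All 59 names were symbols of the RefSeq table used here. Each of them encodes a member of these families except Pcdhgb8, which RefSeq classes as a transcribed pseudogene.

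The study profiled N6-methyladenosine (m6A), a methyl mark inside messenger RNA, in astrocytes and microglia sorted from mouse cortex. Both groups came from mice of the genotype APOBEC1-YTH, in which a cytidine deaminase is fused to an m6A-binding domain. The mice were 10 weeks old when tamoxifen began, received 20 mg/kg every 24 hours over 5 days, and were sampled 7 days after the last dose. There were 2 libraries labelled astrocyte, sorted with an antibody against ACSA2, and 2 labelled microglia, sorted with an antibody against CD11b, and all 4 share genotype and treatment. The promoter or Cre line behind the transgene, and whether each library is 1 animal or a pool, are not stated in the labels. Where libraries did not come from separate animals, their spread is technical. The assay, GLORI, deaminates unmethylated adenosine so that it is read as G, and the level of a site is the percent of reads that still show A there.

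Cadherins hold cells together by binding cadherins of the neighbouring cell in the presence of calcium, and the giant cadherins of the Fat, Dchs and Celsr groups also orient cells within a tissue. Integrins are pairs of an alpha and a beta chain that bind extracellular matrix or counter-receptors and link them to the actin cytoskeleton. Receptor phosphatases carry adhesion domains outside the cell and remove phosphate from tyrosines inside it. In the brain astrocytes carry many protocadherins and Ptprz1, and microglia carry the leukocyte integrin of Itgam and Itgb2. The enzyme complex that writes m6A prefers adenosine before C, within long exons and near stop codons.

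The labels were first set against cell type markers, and those of the replicate 2 libraries ran against their labels. Of 15 astrocyte markers, 13 were listed by the library labelled astrocyte 1 and 0 by astrocyte 2, against 0 by microglia 1 and 11 by microglia 2. Of 15 microglia markers, 2 were listed by the library labelled astrocyte 1 and 13 by astrocyte 2, against 12 by microglia 1 and 0 by microglia 2. Oligodendrocyte markers had sites in 8 of 10 genes for astrocyte 1 and 7 of 10 for microglia 2, and in 0 for the other libraries. Markers of oligodendrocyte precursors had sites in 3 of 5 genes for astrocyte 1 and 1 of 5 for microglia 2, and vascular markers in 2 of 8 for astrocyte 1 and 3 of 8 for microglia 2, with none in the other libraries. Neuron markers had sites in 2 of 10 genes for astrocyte 1 and 1 of 10 for microglia 1, and border macrophage markers in 1 of 8 genes for astrocyte 2 and for microglia 1. The part of these other cells in the results was not tested, and library names below stand for the labels only. The libraries listed 4790 sites in named genes for astrocyte 1, 2348 for astrocyte 2, 1066 for microglia 1 and 3782 for microglia 2. Read depth is unknown. A site missing from a table can be unmethylated, under the calling threshold or unread. Fewer cells of a type and less RNA per cell cannot be told apart either.

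Adhesion genes were listed mainly in the libraries labelled astrocyte 1 and microglia 2. The library labelled astrocyte 1 listed 88 of their sites in 34 genes and astrocyte 2 listed 21 in 16 genes, against 5 in 5 genes listed by microglia 1 and 73 in 33 listed by microglia 2. As labelled, the libraries of the types overlapped: the mean was 54.5 sites for astrocyte and 39 for microglia (difference 15.5, exact two-sided permutation p = 0.667), and 0.33 is the smallest p that this design allows. The difference turned to -18 without astrocyte 1 and to -18.5 without microglia 1, and grew to 49 without astrocyte 2 and 49.5 without microglia 2. For genes with a site the means were 25 and 19 (difference 6, exact two-sided permutation p = 0.667), and the difference was -3 without astrocyte 1, -8 without microglia 1, 15 without astrocyte 2 and 20 without microglia 2.

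Libraries also differ in their totals, so the counts were set against those. Adhesion genes held 1.84% of named-gene sites in astrocyte 1 (exact 95% binomial interval 1.48 to 2.26), 0.894% in astrocyte 2 (0.554 to 1.36), 0.469% in microglia 1 (0.152 to 1.09) and 1.93% in microglia 2 (1.52 to 2.42). These intervals cover the counting of sites only. The shares of astrocyte 1 and microglia 2 lay close together, above those of astrocyte 2 and microglia 1.

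Of 158 protein-coding genes in RefSeq whose symbol fits the rule, 58 had a site in at least 1 library, or 36.7%, where the share over all 21900 protein-coding genes was 22%. By library the share was 21.5% for astrocyte 1 (12.8% over all genes), 10.1% for astrocyte 2 (6.87%), 3.16% for microglia 1 (3.07%) and 20.3% for microglia 2 (10.8%). The adhesion genes therefore stood above all genes in 3 libraries and near them in microglia 1. These genes are large, gene length was not adjusted for, and no test was made. Names such as Itgb1bp1, Itgb3bp and Ptprcap, which fit the rule but encode no family member, had no listed site.

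**Figure D1:**
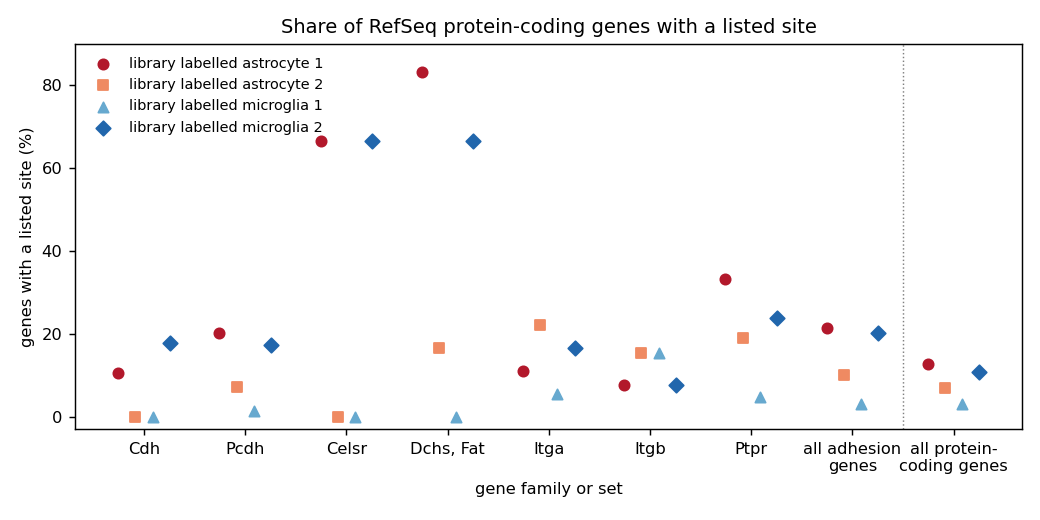
Percent of RefSeq protein-coding genes with at least 1 listed site (vertical axis) for each adhesion gene family, for all adhesion genes and for all protein-coding genes (horizontal axis), with 1 point per library. Families are counted by symbol, so names that fit the rule but encode no family member are included. The Dchs and Fat family reached 83.3% in the library labelled astrocyte 1 and 66.7% in microglia 2, while all protein-coding genes stood at 12.8% and 10.8% there.

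The cadherin superfamily supplied most of these sites, 123 of 187 entries. It made up 69.3% of adhesion gene sites in astrocyte 1 and 28.6% in astrocyte 2, against 20% in microglia 1 and 75.3% in microglia 2. Integrins made up 3.41% in astrocyte 1 and 42.9% in astrocyte 2, against 60% in microglia 1 and 8.22% in microglia 2. Receptor phosphatases made up 27.3% in astrocyte 1 and 28.6% in astrocyte 2, against 20% in microglia 1 and 16.4% in microglia 2. Cadherins thus led in astrocyte 1 and microglia 2, and integrins in astrocyte 2 and microglia 1, although the library labelled microglia 1 rests on 5 sites.

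**Figure D2:**
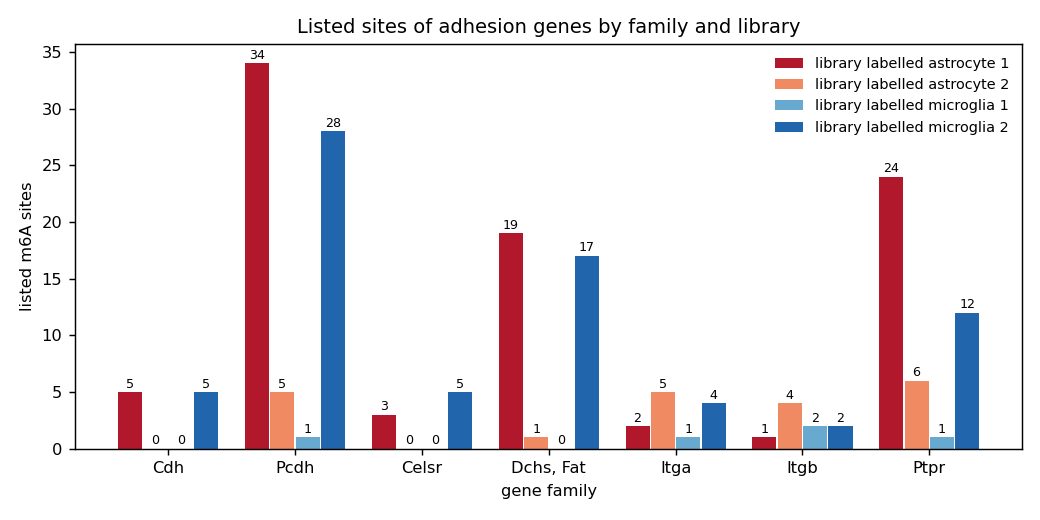
Number of listed m6A sites (vertical axis) in each adhesion gene family (horizontal axis), with 1 bar per library, astrocyte libraries in red shades and microglia libraries in blue. Protocadherins (Pcdh) numbered 34 for the library labelled astrocyte 1 and 5 for astrocyte 2, against 1 for microglia 1 and 28 for microglia 2.

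The bases around each site are known from the deposited 3-mers, which read GAC or AAC with the called adenosine in the middle. GAC stood at 133 of the 180 positions, or 73.9% (exact 95% binomial interval 66.8 to 80.1), against 67.3% of all named-gene positions. Lower-case letters, which mark repeat sequence in common genome files, stood at 1 position, in Pcdh9, a share of 0.556% against 4.97% of all named-gene positions. Within 100 bases of another position lay 30 of the 180, or 16.7%, against 14.4% of all. In 3 genes neighbouring sites were so close that their 3-mers nearly met. These pairs are shown 5′ to 3′ on the RNA, with the called adenosines in capitals, n for bases the tables do not give, and the mm39 position of each A after the gene name.
Fat1, chromosome 8, 45403823 and 45403828, plus strand: gAcnnaAc
Fat4, chromosome 3, 38942256 and 38942260, plus strand: gAcngAc
Ptprs, chromosome 17, 56719594 and 56719586, minus strand: gAcnnnnngAc
The Fat1 pair was listed at 54.5% and 100% in astrocyte 1, and the Fat4 pair at 66.7% and 83.3% in microglia 2. The Ptprs pair stood at 33.3% and 29.4% in astrocyte 1, and its upstream A alone was listed in astrocyte 2, at 100%. Without read counts, whether the 2 levels of a pair differ was not tested.

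Sites were concentrated in few genes. Of the 59 genes, 27 had 1 position, 10 had 2 and 22 had 3 or more. Genes with 1 position made up 45.8% of the members, against 58.8% of all named genes. The 10 genes with 5 or more positions, 16.9% of the members where the share over all named genes was 6.19%, held 94 of the 180 positions. Pcdh9 had 21, Fat1 16, Ptprz1 13, Fat4 8, Ptprs and Dchs1 7 each, Pcdh1 and Ptprf 6 each, and Pcdhgc3 and Fat3 5 each. Of all named genes, only 3 had as many positions as Pcdh9 (itself included), 11 as many as Fat1 and 23 as many as Ptprz1.

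Among protocadherins, Pcdh9 stood out in number. It belongs to the non-clustered delta protocadherins, which mediate weak binding between cells of the nervous system. The library labelled astrocyte 1 listed 13 Pcdh9 sites at levels from 25% to 100% with a median of 46.7%, and microglia 2 listed 9 from 27.8% to 88.9% with a median of 57.1%. No Pcdh9 site was listed in astrocyte 2 or microglia 1. The positions ran over 97902 bases of chromosome 14 (minus strand), but 12 of 21 fell in the 4648 bases from 94123261 to 94127909. The highest level of that stretch was 96.8% at 94125808 in astrocyte 1, and the only position listed in both libraries was 94123900, at 36.4% in astrocyte 1 and 57.1% in microglia 2. This gap of 20.8 points was above the median gap of 11.4 points over the 368 named-gene positions that both libraries listed under 100%.

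The other non-clustered protocadherins with sites were Pcdh1, Pcdh7, Pcdh10 and Pcdh17. Together with Pcdh9 they make 5 of 12 RefSeq genes of the group, where the share over all protein-coding genes was 22%. The group had 20 sites in astrocyte 1, 17 in microglia 2 and none in the other libraries. Pcdh1, on chromosome 18, had 80% and 87.5% at 2 positions in astrocyte 1 and 50%, 66.7%, 87.5% and 100% at 4 others in microglia 2. Pcdh17 had 1 site at 100% in astrocyte 1 and sites at 84.6% and 100% in microglia 2. Pcdh7 stood at 55.6% in astrocyte 1 and at 33.3% and 55.6%, at other positions, in microglia 2. Pcdh10, named after its values were seen, had 3 sites at 66.7%, 75.4% and 100% in astrocyte 1 and none elsewhere.

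The clustered protocadherins give neurons and astrocytes a surface identity. Their genes lie in a row on chromosome 18, and the members of the alpha and of the gamma cluster join an own first exon to exons that the whole cluster shares. The gamma cluster had sites in 15 of 21 protein-coding genes and in Pcdhgb8, between positions 37803282 and 37954654 (plus strand). The beta cluster had sites in 5 of 22, near the share of 22% over all protein-coding genes. The alpha cluster had sites in 0 of 14. The gamma share lay above that of all genes and the alpha share below it, and neither was tested. Gamma sites numbered 12 for astrocyte 1 and 5 for astrocyte 2, against 0 for microglia 1 and 9 for microglia 2. Unlike the non-clustered genes, it was also listed in the library labelled astrocyte 2, in Pcdhga5, Pcdhga9, Pcdhga11, Pcdhgb4 and Pcdhgb5 at 50% to 100%, genes named after their values were seen.

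Pcdhgc3 had the most positions of the clusters, all 5 within 1668 bases. They stood at 63.6%, 66.7% and 82.4% in astrocyte 1 and at 28.6% and 60.9% in microglia 2. Pcdhga12, named after its values were seen, had 3 sites within 160 bases at 62.1%, 62.5% and 75% in astrocyte 1. No position of a clustered gene was listed in more than 1 library. Gene names within the clusters are uncertain, since the transcripts of the genes overlap on the same strand and how the authors assigned a name is not stated in the labels.

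Among the giant cadherins, 5 of 6 genes of the Dchs and Fat group had sites (83.3%, against 22% over all protein-coding genes). These sites numbered 19 in astrocyte 1 and 1 in astrocyte 2, against 0 in microglia 1 and 17 in microglia 2. Fat1, which acts on actin and Hippo signalling, had 7 sites in astrocyte 1 at 44.4% to 100% (median 60%) and 9 in microglia 2 at 30.8% to 100% (median 44.4%). All 16 lay at different positions of chromosome 8, although 7 of them, 3 from astrocyte 1 and 4 from microglia 2, shared the 2621 bases from 45403329 to 45405950. Thus both libraries listed the same stretch of Fat1 without a base in common.

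Fat4 and Dchs1 encode a receptor and its ligand, which bind each other across cells. Fat4 had 5 sites in astrocyte 1 (36.4%, 75% and 3 at 100%) and 3 in microglia 2 (66.7%, 83.3% and 100%), with 6 of its 8 positions in the 3905 bases from 38942256 to 38946161 of chromosome 3. Dchs1, on chromosome 7, had 3 sites in astrocyte 1 (84.6% and 2 at 100%) and 4 in microglia 2 (57.1%, 2 at 66.7% and 1 at 100%). The levels of both genes overlapped between the libraries. Fat3 had 3 sites in astrocyte 1 (80% and 2 at 100%), 1 in astrocyte 2 at 100% and 1 in microglia 2 at 100%, each at its own position. Fat2 had 1 site, at 100% in astrocyte 1.

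Celsr1 and Celsr2, seven-pass cadherins of planar cell polarity, had 4 positions each, all GAC. Celsr1 stood at 100% in astrocyte 1 and at 80%, 87.5% and 100% in microglia 2. Celsr2 stood at 40% and 100% in astrocyte 1 and at 75% and 100% in microglia 2. Neither gene had a site in astrocyte 2 or microglia 1, and Celsr3 had none.

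The classical and related cadherins had 9 positions in 6 of 28 genes. This is 21.4%, near the 22% over all protein-coding genes. They appeared only in the libraries labelled astrocyte 1 and microglia 2. Cdh10, a type II cadherin, had the lowest level of all members: position 18966936 of chromosome 15 stood at 10.6% in astrocyte 1 and 16.4% in microglia 2. Its second site was at 42.9% in astrocyte 1. Cdh19, another type II cadherin, stood at 29.4% and 30% in astrocyte 1 and at 80% at another position in microglia 2. Cdh2, the N-cadherin of neural tissue, had 1 site at 19.4%, and Cdh11 1 at 100%, both in microglia 2. Cdh13, a cadherin anchored in the membrane by a lipid, had 1 at 60% in astrocyte 1. Cdh4, named after its values were seen, had 1 at 80% in microglia 2. The levels of this group hence spanned nearly the whole listed range.

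**Figure D3:**
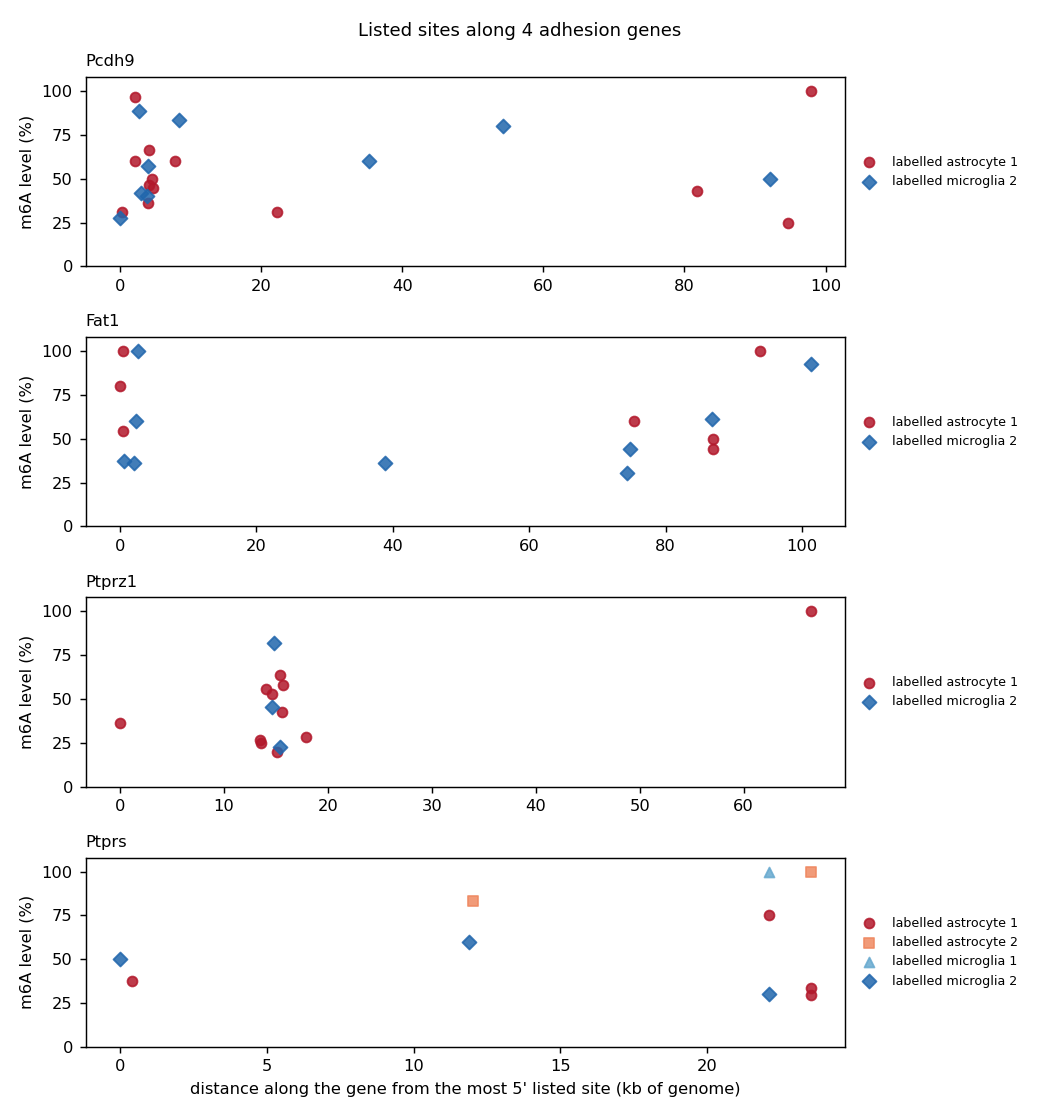
m6A level in percent (vertical axis) of every listed site of Pcdh9, Fat1, Ptprz1 and Ptprs against the distance in kilobases of genome from the most 5′ listed site of the gene (horizontal axis), with 1 point per site and library. Pcdh9 has 12 of 21 positions, Fat1 7 of 16 and Ptprz1 11 of 13 in a single stretch of under 5000 bases.

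Integrins were the only one of the 3 groups with more sites in astrocyte 2 than in astrocyte 1, with 3 sites in astrocyte 1 and 9 in astrocyte 2, against 3 in microglia 1 and 6 in microglia 2. Their 21 positions were all different. They lay in 10 genes, where 31 protein-coding symbols fit the name rule (32.3%, against 22% over all protein-coding genes). Of the leukocyte chains, Itgam, which encodes CD11b, the antigen used to sort microglia, had 1 site at 27.8% (chromosome 7, position 127682920), in the library labelled astrocyte 2. Its partner chain Itgb2 had sites at 27.8% and 44.4% in astrocyte 2 and 1 at 77.8% in microglia 1. Itgb5, a chain that binds vitronectin together with the Itgav product, was listed at 14.9% and 47.6% in astrocyte 2 and at 100% in microglia 1. Neither Itgb2 nor Itgb5 had a site in astrocyte 1 or microglia 2.

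Other integrin chains followed a different order of libraries. Itgb8, whose product pairs with that of Itgav to release active TGF-beta, had sites at 28% and 50%, both in microglia 2. Itgb1, the most widely shared beta chain, had 1 site at 33.3% in astrocyte 1. Itgav was listed in 3 libraries within 997 bases of chromosome 2, with 1 site each at 60% in astrocyte 1 (83634203), 80% in astrocyte 2 (83633667) and 31.2% in microglia 2 (83634664). So 3 libraries listed Itgav at 3 different bases.

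The alpha chains that bind laminin were Itga6, at 100% in astrocyte 1 and 50% in astrocyte 2, and Itga7, at 85.7% in microglia 2. Itga9, which binds tenascin among other ligands, stood at 37.5% and 60% in astrocyte 2. Itga1, a collagen-binding chain, stood at 100% in microglia 1 and at 37.5% and 80% in microglia 2. Among the 59 genes it was the only one with sites in both libraries labelled microglia and in none labelled astrocyte, 1.69% of members against 0.869% of all named genes. The reverse held for Itga6 and Pcdhgb4, 3.39% of members against 4.09% of all named genes. These shares lie near those of all named genes for astrocyte and rest on 1 gene for microglia.

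Receptor phosphatases had sites in 10 genes, where 21 protein-coding symbols fit the name rule (47.6%, against 22% over all protein-coding genes). Their sites numbered 24 in astrocyte 1 and 6 in astrocyte 2, against 1 in microglia 1 and 12 in microglia 2. Ptprz1, the receptor of pleiotrophin and midkine on astrocytes and oligodendrocyte precursors, had 11 sites in astrocyte 1 at 19.6% to 100% (median 42.9%) and 3 in microglia 2 at 22.6%, 45.6% and 81.8%. Of its 13 positions, 11 fell in the 4350 bases from 22999659 to 23004009 of chromosome 6, and AAC outnumbered GAC by 8 to 5. The position 23000720 was listed in both libraries, at 52.8% in astrocyte 1 and 45.6% in microglia 2. This gap of 7.19 points was below the median gap of 11.4 points over all 368 named-gene positions that these libraries both listed under 100%. Of the other adhesion positions that these libraries shared, Cdh10 had a gap of 5.83 points, also below that median. Those of Pcdh9 (20.8 points), Ptprg (27.9 points, at 10916147) and Ptprs (45 points) were above it.

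Ptprs, Ptprf and Ptprd form the LAR group, which binds partners across the synapse. Ptprs was the only adhesion gene with a site in all 4 libraries. Its 7 positions on chromosome 17 (minus strand) all read GAC, with levels of 29.4%, 33.3%, 37.5% and 75% in astrocyte 1 and 83.3% and 100% in astrocyte 2, against 100% in microglia 1 and 30%, 50% and 60% in microglia 2. The levels of astrocyte 2 and microglia 1 were above those of the other libraries. Medians over all named-gene sites were also higher there, at 80% and 100%, against 66.7% in astrocyte 1 and 58.9% in microglia 2. Position 56720998 was listed in 3 libraries, at 75% in astrocyte 1, 100% in microglia 1 and 30% in microglia 2. Position 56719594 was at 33.3% in astrocyte 1 and 100% in astrocyte 2. Libraries of 1 label therefore differed at these bases by 66.7 points for astrocyte and 70 points for microglia. Over all named-gene positions that both libraries of a label listed, the median gap was 4.18 points for astrocyte (238 positions). For microglia it was 0 points (231 positions).

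Ptprf, on chromosome 4, had 3 sites in astrocyte 1 (42.9%, 60% and 100%) and 3 in microglia 2 (36.4%, 42.9% and 60%), at 6 positions that all read GAC. Ptprd stood at 100% in astrocyte 1 and 60% in microglia 2. Ptprg, which binds contactins, had 3 sites in astrocyte 1 (30%, 36.4% and 60%) and 2 in microglia 2 (44.4% and 64.3%). The levels of Ptprf and Ptprg overlapped between these libraries.

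The remaining phosphatases were named after their values were seen. Ptpra and Ptpre, a related pair with short outer domains, and Ptprc, which encodes the leukocyte antigen CD45, were listed only in the library labelled astrocyte 2. Ptpra had sites at 30.8% and 38.9%, Ptpre at 100% and Ptprc at 100%. Ptprb, a phosphatase of vascular endothelium, and Ptprm, which binds its own kind, were listed only in astrocyte 1, at 100% and 42.9%.

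Few of these bases were listed more than once. Of the 180 positions, 174 were in 1 library, or 96.7%, where the share over all named-gene positions was 90.3%. The libraries labelled astrocyte 1 and microglia 2 shared 5 positions, which is 5.68% of the first and 6.85% of the second, against 12.9% and 16.3% over all named genes. The astrocyte libraries shared 1 position, 1.14% of astrocyte 1 and 4.76% of astrocyte 2, against 4.97% and 10.1% over all named genes. The microglia libraries shared 1, which is 20% of microglia 1 and 1.37% of microglia 2, against 21.7% and 6.11%. Astrocyte 1 and microglia 1 shared 1, or 1.14% and 20%, against 6.95% and 31.2%. Astrocyte 2 shared none with either microglia library, where the shares over all named genes were 7.11% and 15.7% with microglia 1 and 10.3% and 6.4% with microglia 2. Most of these shares rest on a single position. The single position that both astrocyte libraries and no microglia library listed (Ptprs, 56719594) is 0.556% of members, against 0.651% of all named-gene positions. No position was listed by both microglia libraries and by no astrocyte library, where the share over all was 0.396%. No test of these shares was made.

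Sharing was also counted by gene, and a shared base by itself makes its gene shared. Astrocyte 1 and microglia 2 had 19 adhesion genes in common, 55.9% of the first and 57.6% of the second, against 44% and 53.1% over all named genes. Of these, 16 were listed in these libraries alone, 27.1% of the members against 15.7% of all named genes. Astrocyte 2 and microglia 1 had 3 in common, Itgb2, Itgb5 and Ptprs, 18.8% of the first and 60% of the second, against 18.9% and 34.6% over all named genes. The first share lies at that of all named genes, and the second rests on 5 genes.

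**Figure D4:**
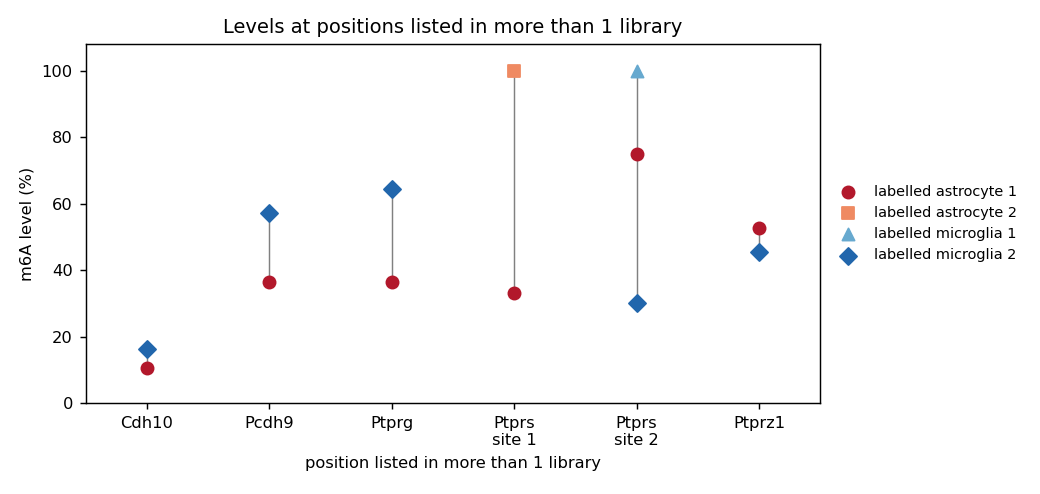
m6A level in percent (vertical axis) at the 6 positions of adhesion genes listed in more than 1 library (horizontal axis), with 1 point per library and a grey line over their range. Both Ptprs positions span 66.7 and 70 points, while the Cdh10 and Ptprz1 positions span 5.83 and 7.19 points.

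The level over all adhesion sites was close to that of other named-gene sites in the larger libraries. The median was 62.3% in astrocyte 1 (66.7% over all named-gene sites) and 55.6% in astrocyte 2 (80%), against 100% in microglia 1 (100%) and 60% in microglia 2 (58.9%). As labelled, the medians averaged 58.9% for astrocyte and 80% for microglia (difference -21.1 points, exact two-sided permutation p = 0.667), and the difference was -1.08 points without microglia 1, which holds 5 sites, and -41.1 points without microglia 2. Within astrocyte 1 the median was 75% for the cadherin superfamily (61 sites), 60% for integrins (3 sites) and 42.9% for phosphatases (24 sites). Within microglia 2 it was 66.7% (55 sites), 43.8% (6 sites) and 47.8% (12 sites). In astrocyte 2, where integrins supplied more sites than either other group, their median was 44.4%, against 84.5% for 6 cadherin sites and 91.7% for 6 phosphatase sites. Cadherin sites had the higher median than integrin sites in these 3 libraries, although few integrin sites stand behind it. In microglia 1 both medians were 100%, from 1 cadherin site and 3 integrin sites. The superfamily is also mixed: Cdh genes alone had a median of 30% in astrocyte 1 and 80% in microglia 2, over 5 sites each.

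**Figure D5:**
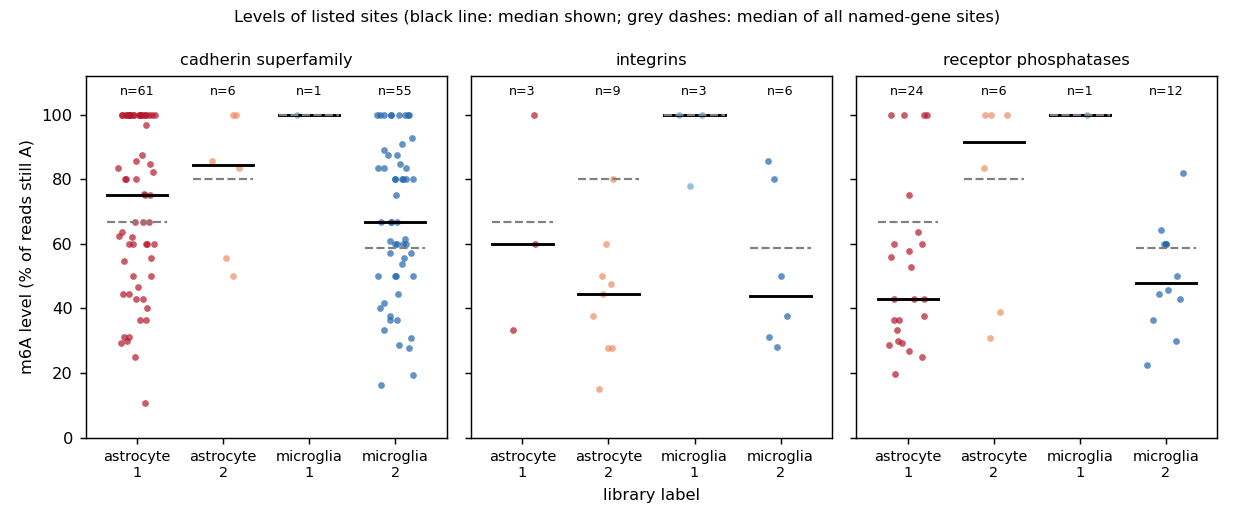
m6A level in percent of reads still read as A (vertical axis) for each listed site of the cadherin superfamily, the integrins and the receptor phosphatases, by library (horizontal axis). Black lines are medians of the sites shown and grey dashes the median of all named-gene sites of that library, which was 66.7% in astrocyte 1 and 58.9% in microglia 2.

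A test of the level at single bases needs bases listed in all 4 libraries, and 0 of the 180 positions met this. Over the whole table limma tested 354 sites and called 0 at an adjusted p under 0.05, or 0%, while 16 had an unadjusted p under 0.05 and the smallest adjusted p was 0.457. No statement on a difference in level between astrocytes and microglia can therefore be made for any adhesion gene. The Ptprs position 56720998 entered the fit made without astrocyte 2, where the smallest adjusted p over 419 sites was 0.999 (limma).

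Partners of the adhesion receptors were listed in the order of the libraries that all protein-coding genes also follow. Of 61 genes for partner proteins and ligands, 25 were listed by astrocyte 1 and 7 by astrocyte 2, against 4 by microglia 1 and 20 by microglia 2. These are 41%, 11.5%, 6.56% and 32.8% of the list, where the shares over all protein-coding genes were 12.8%, 6.87%, 3.07% and 10.8%. Among 12 cadherin partners, Ctnnb1, which encodes beta-catenin, had sites at 37.5% and 42.9% in astrocyte 1 and at 42.9% and 44.4% in microglia 2. Ctnnd2, a brain catenin, had 3 in astrocyte 1 at 15.2% to 53.8% and 1 in microglia 2 at 66.7%. Vangl2, a planar polarity protein, had 2 at 100% in astrocyte 2 and 1 at 85.7% in microglia 2. Astrocyte 1 listed 5 cadherin partners and astrocyte 2 listed 4, against 0 for microglia 1 and 3 for microglia 2.

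Of 20 cytoplasmic integrin partners, astrocyte 1 listed 9 and astrocyte 2 listed 2, against 4 for microglia 1 and 8 for microglia 2. Fermt3, the kindlin of blood cells, had 1 site, at 42.9% in microglia 1, and Fermt2, the kindlin of most other tissues, 1 at 40% in astrocyte 1. Other partners were listed in both of these libraries: Pxn, with the most sites of this list, had 3 in astrocyte 1 and 2 in microglia 1. Parvb had 1 at 100% in each. Tln1, a talin that activates integrins, stood at 60% in astrocyte 1 and 26.7% in microglia 2. Of 15 integrin ligands, astrocyte 1 listed 6 and astrocyte 2 listed 1, against 0 for microglia 1 and 5 for microglia 2. Vtn, which encodes vitronectin and was also among the vascular markers, had 1 at 46.7% in astrocyte 1 and 3 at 11.2% to 16.7% in microglia 2. Of 14 phosphatase ligands, 5 had a site in astrocyte 1 and 4 in microglia 2, and none in the other libraries. Slitrk2, a synaptic partner of LAR phosphatases, had 6 sites in astrocyte 1 at 80% to 100%, and Sdc3, a heparan sulfate proteoglycan, had 1 at 83.3% in astrocyte 1 and 3 at 29.4% to 50% in microglia 2.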

How the data were processed

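Each library has 1 table of called sites with 7 columns. The series' design text names GLORI-tools as the caller, and the submitters' processing notes name STAR and the build mm39. Calling thresholds are not stated there. Each level was deposited by the authors as a fraction, without coverage or read counts. It is printed as a percent. The lowest was 10% in 3 libraries and 10.05% in microglia 2. No interval can be given for a level. Positions are the 1-based mm39 base, and without an mm39 annotation exon, intron and UTR were not determined. A RefSeq table of GRCm38.p6 served for gene symbols only.

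Sites were matched by chromosome, position and strand. limma 3.58.1 (R 4.3.3) was fitted to log2 odds of the deposited levels, limited to 0.01 to 0.99, over sites in all 4 libraries. It had no replicate block, left out sites tied within both labels, used Benjamini-Hochberg adjustment, and was checked on simulated data. A count test at a coverage of 20 reads had been planned for files with read counts, which these are not. Single values were compared by exact permutation over libraries (Python 3.11.15). Leaving out each library, a level minimum of 20%, dropping sites at 100% and a replicate block were tried. With 1 library left out, the lone library of that label is assumed to vary like the other pair.

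Genes named with full values were, per family, the 5 with most positions, any with a position in 3 libraries or a site in all 4, and Itgam. For partner genes no such rule set which were named. Members and lists were chosen with earlier results of these data known.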

Additional observations from a re-analysis of the deposited data

How the results depend on the processing

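The differences between labels in adhesion sites and genes turned negative or grew whichever library was left out. Leaving out each library in turn, the astrocyte minus microglia difference ranged from -18.5 to 49.5 for sites per library (as reported 15.5), being -18 without astrocyte 1 and -18.5 without microglia 1. For genes it ranged from -8 to 20 (as reported 6), being -3 without astrocyte 1 and -8 without microglia 1. For the median level it ranged from -41.1 to -1.08 points and kept its sign. Positions listed under the astrocyte label alone, by each of its libraries, numbered between 1 and 83 (as reported 1), being 21 without astrocyte 1 and 83 without astrocyte 2, and the same under the microglia label alone between 0 and 68 (as reported 0), being 1 without astrocyte 1, 68 without microglia 1 and 4 without microglia 2. In the replicate 1 libraries alone, an alternative added after the data were seen, the differences were 83 sites, 29 genes and -37.7 points, and 87 positions were in astrocyte 1 alone and 4 in microglia 1 alone. With sites at 100% left out, the shared position of the astrocyte libraries, of the microglia libraries and of astrocyte 1 with microglia 1 was lost, each count being 0, and so was the position listed under the astrocyte label alone, at 0. Leaving these sites out also lowered the difference in sites to 7 and that in genes to 2, and counting only genes with at least 2 sites in a library lowered the gene difference to 2.5. The level minimum of 20% gave 15 sites and 7 genes. Of 32 named genes, positions dropped by more than 1.5 times in 2 with that minimum and in 10 with sites at 100% left out. With the replicate number as a block the difference in sites was 15.5 (exact permutation p = 1). With 2 blocks this test cannot reach a p under 0.05. The blocks ran in opposite directions: 83 more sites for astrocyte in replicate 1, but 21 in astrocyte 2 against 73 in microglia 2. With the same block limma called 0 sites. Its calls were 0 under every alternative run. The deviations of same-numbered libraries correlated at -0.0703 over 354 sites, and nothing in the labels pairs them. Read depth is unknown and limits every level.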
